A study of Mus musculus with 6 samples.

Results

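The genes Kdr, Aplnr, Fli1, Sox17 and Tal1, which act in the first endothelial cells and in the shared precursors of vessels and blood, were followed in mouse presomitic mesoderm (PSM), the tissue that buds off somites. Every probe set of the array table whose annotation gave exactly 1 of these symbols was taken, whatever its signal. That gave 7 probe sets, 1 each for Kdr, Fli1 and Tal1 and 2 each for Aplnr and Sox17. The table held 19551 probe sets beside its array controls, and 10290 genes had a probe set of their own, these 5 among them. The series compared 3 control and 3 mutant pools, each made from 3 anterior PSMs at embryonic day 8.75 on a background labelled C57BL6/6J. Control embryos carried R26R AC/AC, that is, the AC allele at ROSA26 on both chromosomes, and mutant embryos carried R26R AC/AC together with T-Cre, so both groups had the allele and the mutant group alone had the recombinase. In T-Cre the recombinase is driven by the T (Brachyury) promoter, so it acts in cells of the primitive streak and in mesoderm derived from them. AC is read here, from knowledge of the study, as A-CREB, a dominant-negative blocker of the CREB transcription factors that is silent until Cre acts. No group had T-Cre alone, so effects of the recombinase and of the allele cannot be told apart. The labels call the pools biological replicates, and the p-values below set differences against the spread between those pools. In the linear model used below, the estimate of that spread is shared in part over all probe sets.

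As background, endothelial and blood cells come from mesoderm that starts to make the receptor Kdr. The ETS factors Etv2 and Fli1 and the basic helix-loop-helix factor Tal1 then commit such cells, which are known as hemangioblasts where they can still give both lineages. Apelin receptor marks early lateral and paraxial mesoderm and angioblasts, and the SoxF factor Sox17 acts in arterial endothelium as well as in definitive endoderm. The PSM itself lies beside the dorsal aortae, and its own cells can give rise to angioblasts.

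Promoter sequence was shown for Kdr and Tal1, the members with a promoter window in the RefSeq table (GRCm38.p6), so that the letters before their starts can be read beside the array values. Aplnr, Fli1 and Sox17 had no entry. Each run below is the 250 bases before a transcript start, 5′ to 3′ on the gene's strand. The Kdr run is chr5:75978456-75978705 on the minus strand, and the Tal1 run is chr4:115056176-115056425 on the plus strand. Capitals mark the ETS core GGAA or its complement TTCC.

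Kdr: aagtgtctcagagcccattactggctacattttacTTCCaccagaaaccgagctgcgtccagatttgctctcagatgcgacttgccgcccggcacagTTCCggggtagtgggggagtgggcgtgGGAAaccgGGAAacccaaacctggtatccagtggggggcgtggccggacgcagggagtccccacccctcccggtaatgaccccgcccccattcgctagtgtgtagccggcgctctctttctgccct
Tal1: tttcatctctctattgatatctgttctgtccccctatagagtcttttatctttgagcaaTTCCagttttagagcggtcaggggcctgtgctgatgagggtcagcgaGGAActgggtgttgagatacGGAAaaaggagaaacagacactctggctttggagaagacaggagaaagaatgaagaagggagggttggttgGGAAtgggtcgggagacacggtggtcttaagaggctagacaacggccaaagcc

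The 2 genes had 3 windows of 300 bases (250 before and 50 after the start), since Tal1 had 2. Both strands were searched, and a motif that reads the same on both was counted once per place. The ETS core GGAA occurred 5 times in the Kdr window and 4 times in each Tal1 window, and 96% of all 32851 windows held it. The E-box CANNTG, the kind of site that Tal1 binds with its partners, occurred once in the Kdr window and once in the first Tal1 window, and 72.3% of windows held it. The GATA motif GATAA occurred once, in the first Tal1 window (25.4% of windows). The cyclic AMP response element TGACGTCA, the palindrome bound by CREB, was in none of the 3 windows (1.79% of windows), and its shorter form TGACG, which is contained in it, occurred once, in the second Tal1 window (20.8%). The SOX core ACAAT was in none of them (31% of windows).

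In mutant PSM, 2 of the 7 probe sets fell, that of Kdr and 1 of the 2 for Sox17, and 0 rose. All 7 had negative log2 differences (mutant minus control), with a median of −0.74, where the median over all 19551 probe sets was 0.03. A call was an adjusted p under 0.05 in limma, a linear model with a shared estimate of spread, after Benjamini-Hochberg adjustment over all 19551 probe sets. Among all probe sets 0.317% were called lower and 0.24% higher. In 5 of the 7, all 3 mutant pools lay below all 3 control pools, as in 8.19% of the table. Of the 7, 6 lay above the 40th percentile of mean signal, and the second Sox17 probe set, at the 19.0th percentile, did not. The members had been proposed with such values in view, so these counts describe them and do not test them as a set.

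**Figure D1:**
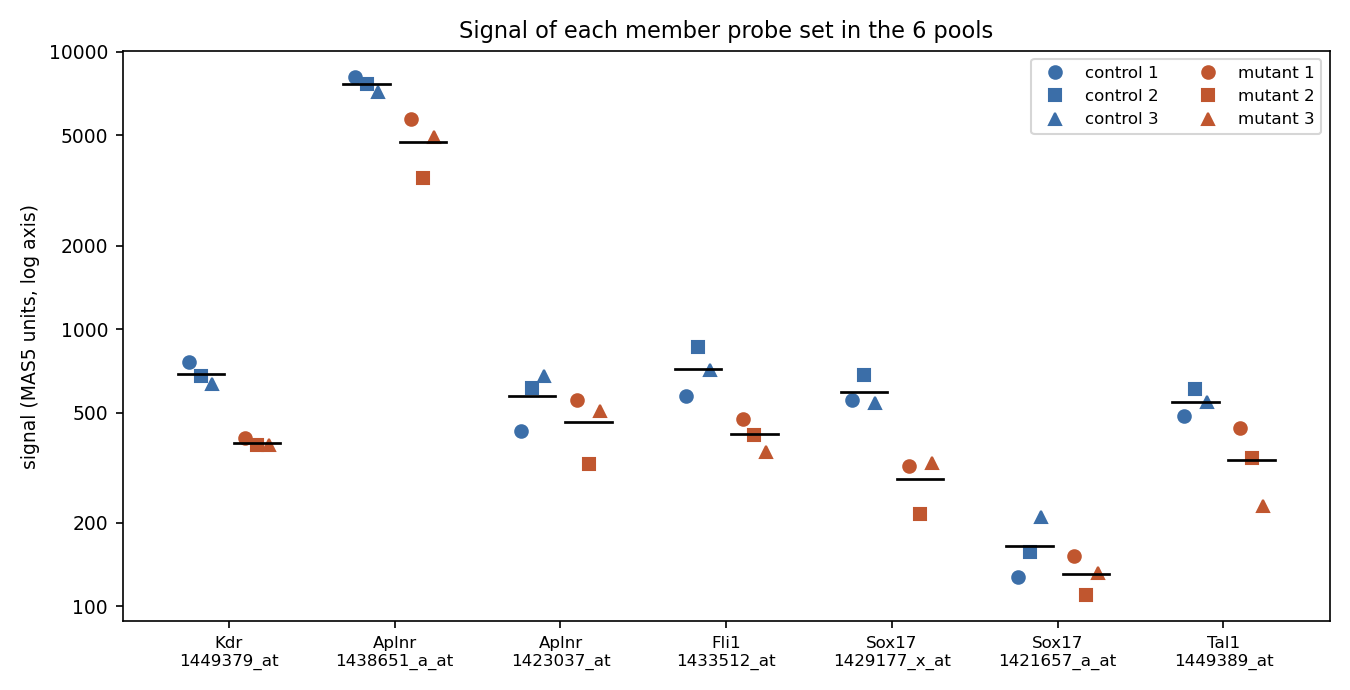
Signal in MAS5 units (log axis) of the 7 probe sets in 3 control pools (blue) and 3 mutant pools (orange), with a bar at the group mean. The mutant points lie below all control points for Kdr, the first Aplnr probe set, Fli1, the first Sox17 probe set and Tal1, and overlap them for the other two.

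Kdr encodes the main receptor tyrosine kinase for VEGF-A and is needed for the first endothelial and blood cells. Its signal (probe set 1449379_at) was 761, 675 and 634 in control 1, 2 and 3, against 404, 381 and 381 in mutant 1, 2 and 3. The 3 mutant pools lay close together and well under the lowest control pool. Mean signal was 689.9 ± 64.5 (SD, n = 3 pools) in control and 388.6 ± 13.2 in mutant, and the mutant level was 56.5% of control (95% confidence interval 45.5 to 70.2%). The log2 difference was −0.82 (SE 0.14, limma adjusted p = 0.0345), which placed Kdr 82nd by p among all probe sets. The direction was the same without any 1 array, with log2 differences of −0.88 to −0.75. The call was kept without control 1 (adjusted p = 0.0409) and lost without control 2 (0.122), control 3 (0.116), mutant 1 (0.157), mutant 2 (0.169) or mutant 3 (0.0572).

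Aplnr encodes the G protein-coupled receptor for apelin and for Apela (Elabela). Its probe set with the higher signal (1438651_a_at) read 8119, 7635 and 7134 in control 1, 2 and 3, against 5730, 3500 and 4903 in mutant 1, 2 and 3. The groups did not overlap, and mutant 2 was the lowest pool. The mutant level was 60.6% of control (95% confidence interval 47.3 to 77.6%), with a log2 difference of −0.72 (SE 0.16) that did not pass (limma adjusted p = 0.0873). The second Aplnr probe set (1423037_at) read 429, 614 and 677 in control 1, 2 and 3, against 554, 327 and 506 in mutant 1, 2 and 3. Here the groups overlapped, control 1 was lower than mutant 1 and mutant 3, and the log2 difference was −0.32 (SE 0.23, 95% confidence interval −0.84 to 0.20, limma adjusted p = 0.614). The log2 ratio of the first to the second probe set fell by 0.40 from control to mutant, and an exact two-sided permutation test over the pools gave p = 0.2, where 0.1 is the smallest p that 3 pools against 3 allow. Control 1 had the highest such ratio, 4.24, against 3.27 to 3.63 in the other 5 pools.

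Fli1 is an ETS transcription factor of endothelial cells and of early blood cells. Its probe set (1433512_at) read 574, 863 and 712 in control 1, 2 and 3, against 475, 416 and 361 in mutant 1, 2 and 3. Control 1 was the lowest control pool and still above every mutant pool. The mutant level was 58.8% of control (95% confidence interval 44.4 to 77.8%), with a log2 difference of −0.77 (SE 0.18, limma adjusted p = 0.104). Without control 1 the difference was −0.92 and passed (adjusted p = 0.0291), and in the fits without another array it was −0.86 to −0.62 and did not pass.

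Sox17 encodes an HMG-box factor of the SoxF group, made in arterial endothelium and in endoderm. The probe set with the higher signal (1429177_x_at) read 557, 684 and 539 in control 1, 2 and 3, against 321, 215 and 328 in mutant 1, 2 and 3. Every mutant pool was below every control pool, and mutant 2 was again the lowest. The mutant level was 48.1% of control (95% confidence interval 35.5 to 65.0%), and the log2 difference was −1.06 (SE 0.20, limma adjusted p = 0.0492). The suffix of this probe set marks a design that can cross-hybridise. Its call was kept without control 1 (adjusted p = 0.0361) or mutant 3 (0.0414) and lost without control 2 (0.181), control 3 (0.142), mutant 1 (0.162) or mutant 2 (0.173). After the filter at the 40th percentile the adjusted p was 0.0507.

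The second Sox17 probe set (1421657_a_at) read 127, 157 and 210 in the control pools and 152, 110 and 132 in the mutant pools. The groups overlapped, and the log2 difference was −0.31 (SE 0.23, 95% confidence interval −0.83 to 0.21, limma adjusted p = 0.627). The log2 ratio of the first to the second probe set was 1.86 ± 0.44 (SD, n = 3 pools) in control and 1.12 ± 0.17 in mutant. It was lower in every mutant pool than in any control pool, and the exact two-sided permutation test gave p = 0.1, the smallest these pools allow. The fall of Sox17 thus rests on 1 probe set, and the other, which is dimmer, gave no call in either direction.

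Tal1 (Scl) is the basic helix-loop-helix factor that specifies blood and helps to specify endothelium. Its probe set (1449389_at) read 486, 607 and 547 in control 1, 2 and 3, against 441, 342 and 230 in mutant 1, 2 and 3. The groups did not overlap, mutant 1 lay just under control 1, and mutant 3 was the lowest pool. The control level was 1.67 times the mutant level, the 95% confidence interval of the mutant level was 42.4 to 84.8% of control, and the log2 difference was −0.74 (SE 0.23, limma adjusted p = 0.201). It did not pass in any of the 6 fits without 1 array, where the difference ran from −0.95 without mutant 1 to −0.49 without mutant 3.

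**Figure D2:**
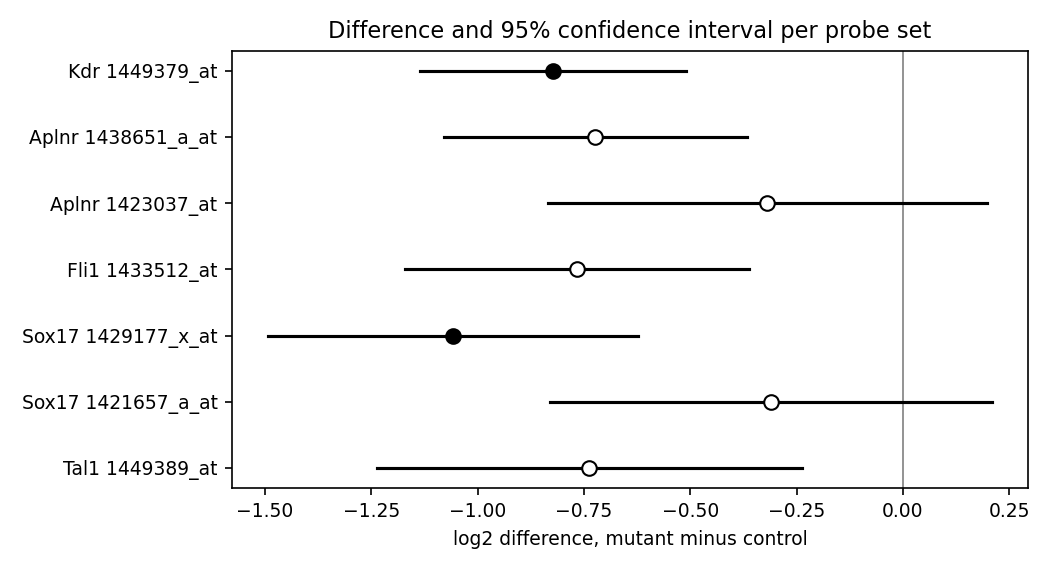
Log2 difference, mutant minus control, of the 7 probe sets with 95% confidence intervals from limma. Filled points (Kdr and the first Sox17 probe set) had an adjusted p under 0.05, open points did not, and the intervals of the second Aplnr and second Sox17 probe sets include 0.

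In such bulk samples, fewer cells of a type and less RNA per cell cannot be told apart. The arrays also differed in labelling quality. The 3′ to 5′ signal ratio of the dap spike-in transcript was 26.8, 29.1 and 24.0 in control 1, mutant 1 and mutant 2, against 13.6, 12.5 and 12.8 in control 2, control 3 and mutant 3. The arrays had median signals of 491 to 535, and Pearson's r between arrays, taken over probe sets that are not independent of each other, ran from 0.975 to 0.991. Each set of 3 arrays held both genotypes, with 1 pool of one and 2 of the other, so the differences within a set have no test.

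Kdr differed by −0.95 among the arrays of high ratio and −0.78 among those of low ratio, and the first Sox17 probe set by −1.08 and −0.89. The first Aplnr probe set had −0.86 and −0.59. The sign of these 3 probe sets was the same in either set. Fli1 had −0.37 among the arrays of high ratio and −1.12 among those of low ratio, and Tal1 had −0.32 and −1.32. The second Aplnr probe set had −0.01 and −0.35, and the second Sox17 probe set 0.02 and −0.46. With the split added to the model, 5 of the 7 probe sets were called lower, all but the second ones of Aplnr and Sox17: Aplnr had an adjusted p of 0.0132, Fli1 of 0.0263 and Tal1 of 0.0349. In that fit 339 probe sets of the table were called lower and 341 higher, against 62 and 47 without the split.

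**Figure D3:**
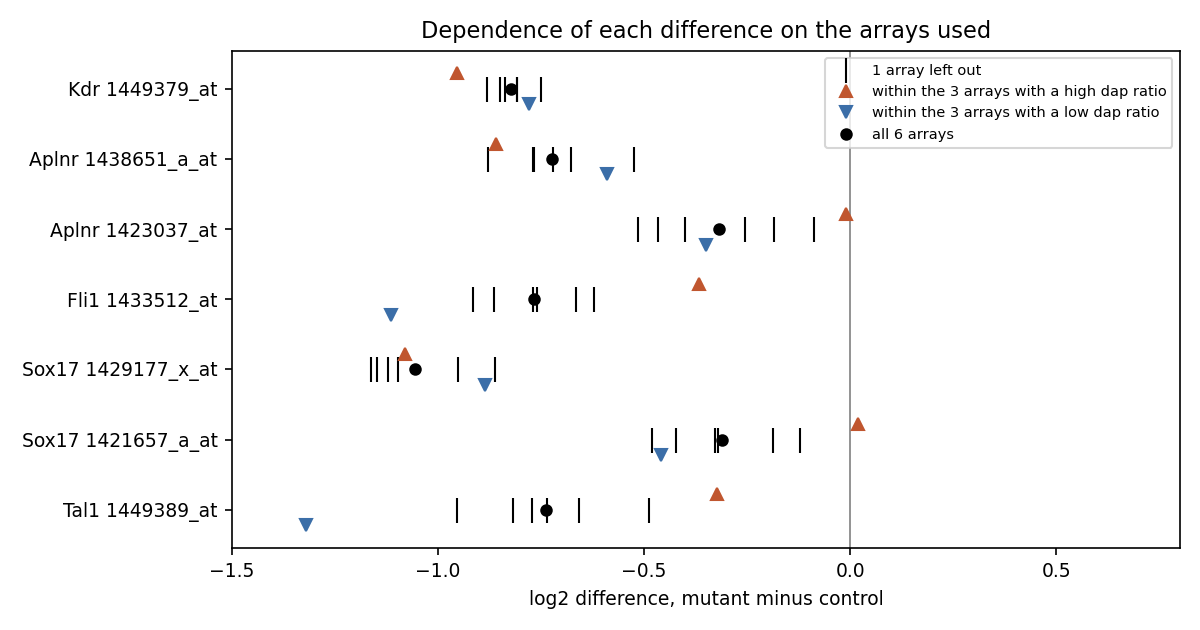
Log2 difference, mutant minus control, of each probe set over all 6 arrays (dots), with 1 array left out (bars), and within the 3 arrays of high and the 3 of low dap ratio (triangles). Kdr spans −0.95 to −0.75 over all of these, while Tal1 spans −1.32 to −0.32.

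Mean-centred log2 signals of 2 probe sets were set against each other by the root mean square of their difference over the 6 pools, where a small value means a like pattern. Among the 5 genes, each by its brighter probe set, Fli1 and Tal1 were nearest (0.18), followed by Kdr and Aplnr (0.20) and Aplnr and Sox17 (0.21). Sox17 and Tal1 were farthest apart (0.40). The dimmer probe sets of Aplnr and Sox17 were nearer to each other (0.14) than either was to the brighter probe set of its own gene (0.33 and 0.46). Over the other genes above the 40th percentile, Ube2j1, which encodes a ubiquitin-conjugating enzyme of the endoplasmic reticulum, was nearest to Kdr (0.06), with Nsmf (0.06) and Zfp948 (0.07) next, all of them called lower. Nearest to Aplnr were the kinase gene Snrk (0.09), Triap1 (0.10) and Srrd (0.12). Nearest to Fli1 were Med9, a Mediator subunit (0.16), Znrd2 (0.16) and the kinase gene Stk16 (0.17). For Sox17 they were Cisd2, an iron-sulfur protein gene (0.14), Wdr90 (0.15) and Tysnd1, a peroxisomal protease (0.16). For Tal1 the nearest was Fli1 itself, then Ctu2, which acts in tRNA thiolation, and Insig1, a regulator of sterol synthesis (0.19 for both). None of these genes was on a list used here.

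The genes around the 5 members were described from lists by role, each gene by its brightest probe set. Of 10 measured genes of VEGF and Tie signalling, the ligands and co-receptors that act with Kdr, 0 passed in either direction, 5 were positive and 5 negative, and the median log2 difference was 0.02. The ligand gene Vegfa had 0.08 (limma adjusted p = 0.900), and the co-receptor genes Nrp1 and Nrp2 had −0.07 and 0.21. Tek, the receptor of angiopoietins, had −0.10 (adjusted p = 0.875). The largest difference was that of Angpt1, a ligand of Tek. Its signal was 99.9, 129 and 136 in the control pools and 190, 221 and 194 in the mutant pools, so all 3 mutant pools lay above the controls, but the difference of 0.73 did not pass (limma adjusted p = 0.143).

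Of 7 genes of apelin ligands, inhibitory G proteins and arrestins, 0 passed, and the median was 0.01. Apela, the embryonic ligand of Aplnr, read 3584, 3038 and 3298 in the control pools and 3795, 4680 and 3718 in the mutant pools, above the controls in all 3 pools, with 0.29 (limma adjusted p = 0.352). Its second probe set had −0.19. Apln had 0.34 (adjusted p = 0.493). Neither ligand of Aplnr had a call.

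Of 9 measured ETS and SoxF factors, the families of Fli1 and Sox17, 0 passed, 8 were negative and the median was −0.39, against 0.02 over all genes taken the same way. Etv2, the ETS factor at the head of the endothelial and blood programme, read 642, 587 and 565 in control 1, 2 and 3, against 408, 347 and 438 in mutant 1, 2 and 3. The groups did not overlap, and the difference was −0.59 (SE 0.15, limma adjusted p = 0.124). Ets2 had −0.53 (adjusted p = 0.189) and Gabpa −0.32 (adjusted p = 0.294). The SoxF genes Sox7 and Sox18, which share functions with Sox17 in vessels, had −0.68 (SE 0.26) and −0.69 (SE 0.44), and their groups overlapped.

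Of 9 measured genes of the Tal1 complex and of early blood stem cells, 0 passed, 6 were negative and the median was −0.10, which ran from −0.30 without control 1 to −0.02 without mutant 2 and was −0.28 with array weights. Hhex, a homeobox gene of endothelial precursors and of endoderm, had the largest difference. It read 292, 549 and 419 in the control pools and 247, 222 and 238 in the mutant pools, without overlap, and had −0.79 (SE 0.22, limma adjusted p = 0.166). Lmo2, the LIM protein that bridges Tal1 to GATA factors, had −0.28 (adjusted p = 0.436), Gata2 −0.36 (adjusted p = 0.522) and Gata1 0.40 (adjusted p = 0.502). The E-protein partners of Tal1, Tcf3, Tcf4 and Tcf12, had −0.21, −0.06 and 0.03. Over these 4 lists together, 35 genes were measured, 22 were negative and 0 passed in either direction, while 4850 of all 10290 genes were negative. Mutant pools lay all below the controls in 4 of the 35 and all above in 3, near the background of 977 and 1214 of the 10290 genes.

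Of 28 measured endothelial markers other than the 5 members, 18 were negative, with a median of −0.08, 0 fell and 1 rose. Of the 28, 13 had a mean signal above the 40th percentile, against 7245 of all 10290 genes taken the same way. Most values of this list thus come from dim probe sets. After the filter at that percentile the list's median was −0.10. Mmrn2, an endothelial matrix protein, read 269, 397 and 279 in the control pools and 699, 626 and 630 in the mutant pools, and rose by 1.07 on the log2 scale (SE 0.18, limma adjusted p = 0.0299). Its 3 other probe sets had 0.83, 0.78 and 0.50 and did not pass, and the one that rose can cross-hybridise. The Mmrn2 call was lost without control 3 (0.143), mutant 1 (0.186) or mutant 2 (0.155), and without the intensity trend (0.0741). Emcn, an endothelial sialomucin, had 0.77 (adjusted p = 0.123), and the junction gene Esam −0.53 (adjusted p = 0.237). Cdh5, or VE-cadherin, read by 1 probe set, had −0.06 (adjusted p = 0.943), and the 4 probe sets of Egfl7, a secreted endothelial factor, ran from −0.59 to −0.25 without a call. In 3 markers the mutant pools lay all below the controls and in 3 all above, against 977 and 1214 of all 10290 genes taken the same way. Pecam1, Flt1 and Tie1 had no probe set of their own among those fitted, so 28 of 36 listed markers were measured. For the same reason 10 of 15 listed VEGF and Tie genes were measured, without Flt1, Flt4 and Tie1. The list's summed signal was 12788 to 15919 in control and 12877 to 16319 in mutant, so the groups overlapped. Podxl and Efnb2 had the highest control means in it (3413 and 1489), so they weigh most in that sum. The list's median was 0.14 in the arrays of high dap ratio and −0.30 in those of low ratio, and 0.01 with the split in the model.

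**Figure D4:**
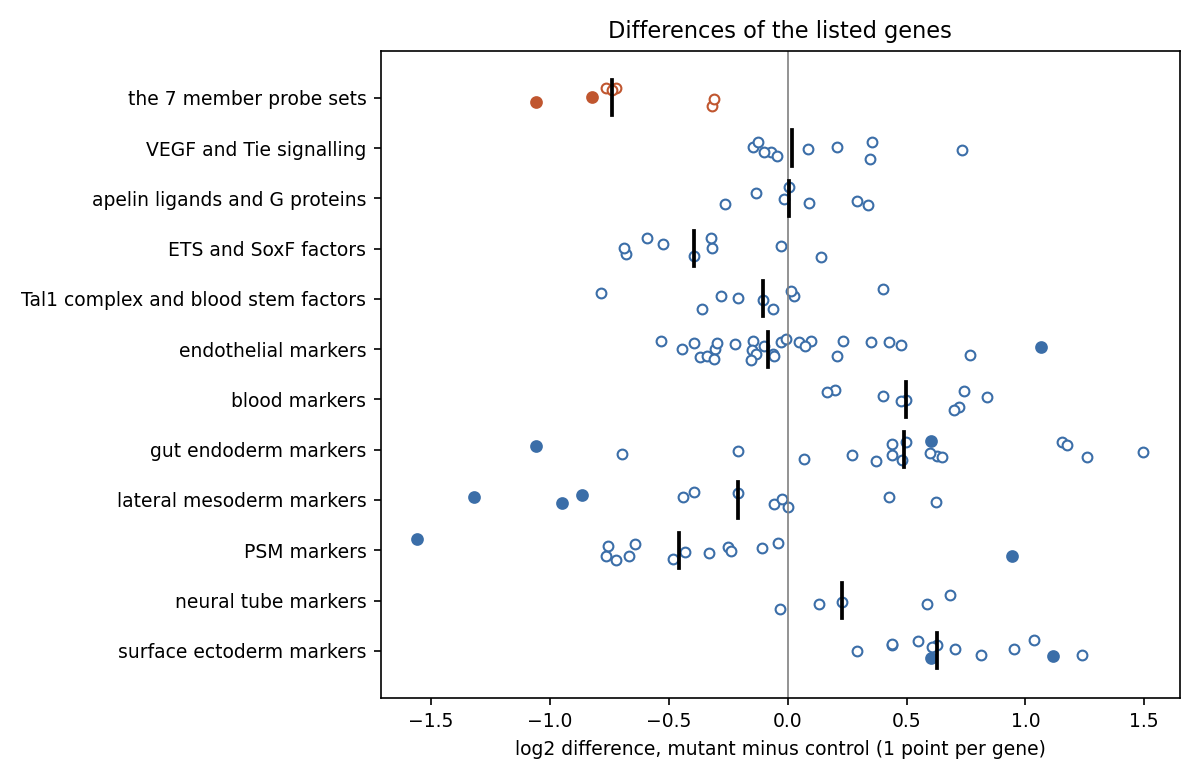
Log2 difference, mutant minus control, of the 7 member probe sets (orange) and of each listed gene by its brightest probe set (blue). Filled points passed, and black bars are medians: −0.74 for the member probe sets, −0.39 for ETS and SoxF factors, −0.08 for endothelial markers and 0.63 for surface ectoderm markers.

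Markers of other tissues that a dissected PSM can hold moved beside the members, and their part in the values above was not tested. Kdr and Aplnr are also made in lateral mesoderm. Of 11 measured markers of lateral and intermediate mesoderm, 3 fell and 0 rose: Prrx1 (−1.32), Hand2 (−0.95) and Foxf1 (−0.87), all transcription factors of that tissue. In all, 8 were negative and 3 positive, among them Bmp4 (0.62, limma adjusted p = 0.328) and Lhx1 (0.43), whose mutant pools lay all above the controls. The summed signal was 9474 to 11862 in control and 6983 to 8202 in mutant. Msx1, Hand2 and Foxf1 had the highest control means in it (2739, 2163 and 2108). The median of −0.21 was not stable: it was −0.02 without mutant 3, 0.07 in the arrays of high dap ratio and −0.41 in those of low ratio, and −0.87 after the filter at the 60th percentile. Prrx1 kept its call without any 1 array, and Hand2 and Foxf1 lost theirs without control 2, control 3, mutant 1 or mutant 2 (highest adjusted p = 0.108 and 0.231). Foxf1 also lost its call under quantile normalization (0.0528) and after the filters at the 40th and 60th percentile (0.0503 and 0.0511), and both lost it without the intensity trend (0.0904 for Hand2 and 0.110 for Foxf1). Tal1, Fli1 and Hhex are made in blood precursors too. Of 9 measured blood markers, all 9 were positive, with a median of 0.50, and 0 passed. Car2 had the smallest adjusted p of them, with 0.72 (limma adjusted p = 0.0734) and no overlap of the groups. Hbb-bh1, a globin of embryonic red cells, had 0.50 (adjusted p = 0.108) and Klf1, a factor of red cells, 0.74 (adjusted p = 0.228). Summed blood signal was 32122 to 44670 in control and 44937 to 63370 in mutant, where the globin genes make up most of it, and the median was 0.72 in the arrays of high dap ratio and 0.08 in those of low ratio.

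Sox17 is itself on the gut endoderm list, where it was the 1 gene of 18 measured that fell. Epcam, an epithelial adhesion gene, was the 1 that rose (0.60, limma adjusted p = 0.0400), 15 of the 18 were positive, and the median was 0.49. Cer1, which encodes a secreted protein, had −0.70 (adjusted p = 0.336). The fork head factors Foxa1, Foxa2 and Foxa3, which mark endoderm, had 0.27, 0.37 and 0.60. Summed signal of the list was 21042 to 25198 in control and 29970 to 48318 in mutant. Most genes of this list thus had the opposite sign to Sox17, while Cer1 and Gata6 (−0.21) were negative too. Gata6 is also on the lateral mesoderm list. Epcam, Cdh1, Krt8 and Krt18 are also on the surface ectoderm list below. The part of endoderm in the Sox17, Cer1 and Gata6 values was not tested. All 13 surface ectoderm markers were positive with a median of 0.63, and 2 rose, Epcam, which is on both lists, and the keratin gene Krt19 (1.12, adjusted p = 0.0458). Perp (1.24, limma adjusted p = 0.0601) and Tfap2c (0.81, adjusted p = 0.0708) did not pass. The summed signal of the 13 was 15997 to 18476 in control and 24657 to 26055 in mutant. The 5 neural tube markers measured had a median of 0.23, and 0 passed. Without mutant 1, mutant 2, control 2 or control 3, both Epcam and Krt19 lost their calls, with a highest adjusted p of 0.194 and 0.221, and Epcam also lost it without mutant 3 (0.0602) and under median centring (0.0645). Krt19 lost its call after the filters at the 40th and 60th percentile (0.0507 and 0.0516), and both lost it without the intensity trend (0.110 for each).

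Of 14 measured PSM markers, 12 had a mean signal above the 40th percentile of the table. So had 7245 of all 10290 genes taken the same way and 14 of the 18 gut endoderm markers, so this count does not identify the tissue. Control means of PSM markers were, for example, 1070 for Ripply2 and 3284 for the Notch ligand gene Dll1, while the segmentation genes Mesp2 and Lfng were dim (194 and 236). Of the 14, 1 fell, Ripply2 (−1.56), 1 rose, Pax3 (0.94), and 13 were negative, with a median of −0.46. Tbx6 had −0.76 (limma adjusted p = 0.108). Pax3 lost its call without control 2, control 3, mutant 1 or mutant 2 (highest adjusted p = 0.186) and without the intensity trend (0.0692), and Ripply2 kept it in each of these fits.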

How the data were processed

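The arrays of 3 control and 3 mutant pools, were analysed. The authors deposited 1 linear intensity (signal) per probe set and array. Affymetrix Expression Console and MAS5 are named per the submitters' processing notes, with versions, scaling target and genome build not given in the sources used here. The authors' scaling was kept, 55 array controls were left out and 1 was added before taking log2. Detection calls were not used here. Probe sets were named through the platform annotation (17348 with 1 symbol, 494 with several, 1709 with none). The 19551 probe sets, low signals included, were fitted in 1 run of limma 3.58.1 (R 4.3.3) on genotype. It used empirical Bayes moderation, an intensity trend and Benjamini-Hochberg adjustment, and the code was tested on simulated data. The rule that left these probe sets in the deposited table was not stated in the sources used here. Percentiles, shares and genes without a probe set refer to that table, which may be part of the array. Members and lists were chosen with earlier results of these data known. Genes named were the members, per list up to 6 called genes and some, not all, of the 4 with the smallest p, and the 3 nearest in pattern to each member. Others named (Vegfa, Nrp1, Tek, Sox18, Tcf3, Tcf4, Tcf12, Cdh5, Podxl, Efnb2, Foxa1, Foxa2, Foxa3, Cer1, Apoa1, Ttr, Gata6, Lhx1, Msx1, Mesp2 and Lfng) were chosen after their values were seen. Residuals of equally numbered pools had r of 0.18, −0.27 and 0.27, so pools were not paired. Alternatives changed the offset (16, 64), filter (40th, 60th percentile, or 1 probe set per gene), normalization, trend, array weights, blocks and arrays. The number of arrays limits the precision.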

Additional observations from a re-analysis of the deposited data

How the results depend on the processing

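All 7 member differences stayed negative in each alternative that gave a value, except that the second Sox17 probe set had 0.019 (reversed) within the arrays of high spike-in ratio. Below, members are counted as probe sets, and Aplnr and Sox17 stand for their brighter probe sets. The filter at the 40th percentile left the Sox17 difference at −1.06 and 1 member called (Kdr). The filter at the 60th percentile kept only the brighter Aplnr probe set, with 0 members and 0 endothelial markers called. Without the intensity trend, Kdr (−0.82) and Sox17 (−1.06) lost their calls, leaving 0 members and 0 endothelial markers. With array weights, Aplnr (−0.67) and Fli1 (−0.78) were called too, making 4 members, with 2 endothelial markers higher and 4 genes of the role lists lower. With the replicate block, 3 members were called, Aplnr (−0.72) among them, though the pools share only a number, and 2 of the 3 equally numbered pools had positive residual r. With the spike-in ratio block, Aplnr (−0.72), Fli1 (−0.74) and Tal1 (−0.82) were called, making 5 members, with 2 endothelial markers higher and 2 role-list genes lower and 1 higher. Counts over the table, higher and lower, were 29 and 52 with the filter at the 40th percentile, 14 and 34 at the 60th, 25 and 22 without trend, 469 and 433 with array weights, 113 and 105 with the replicate block, and 341 and 339 with the spike-in block, against 47 and 62. With 1 array left out they were 19 to 100 higher and 14 to 106 lower, with 0 to 3 members, 0 to 1 endothelial markers higher and 0 to 1 role-list genes lower. Differences were then −0.88 to −0.75 for Kdr, −1.16 to −0.86 for Sox17, −0.92 to −0.62 for Fli1 and −0.88 to −0.52 for Aplnr. The second probe sets had −0.48 to −0.12 (Sox17) and −0.52 to −0.09 (Aplnr), with 0 calls. Fits without 1 array have fewer samples. The cause of the other changes was not tested. At most 3 pools per genotype limit every value.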
